A study of Mus musculus with 6 samples.

Results

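The mRNAs of the respiratory chain were followed in mouse prefrontal cortex, in 3 libraries from Pla2g4e knockout (KO) and 3 from wild-type (WT) mice. Members were genes with at least 60 fragments summed over the 6 libraries and a symbol that met a name rule. For mitochondrially encoded subunits the rule took symbols that begin with mt-Nd, mt-Co, mt-Atp or mt-Cytb. For nuclear subunits it took Nduf with a, b, c, s or v and a digit, Sdha to Sdhd, Uqcr, Cox4 to Cox8 and Atp5. Names ending in -ps and a number were left out. This name rule matched 105 genes, 13 mitochondrial and 92 nuclear. Of these, 89 reached 60 fragments (7 mitochondrial and 82 nuclear), out of 56923 genes in the tables and 29943 genes with a fragment in any library. The rule itself uses names and summed fragments, not a difference between groups, but it was chosen with earlier results of these data known. The members nearest to the limit were mt-Co3 (38 fragments), mt-Co2 (29) and Cox7b2 (29) below it and Cox7a1 (63), Cox6b2 (94) and Cox4i2 (100) above it.

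The KO animals carried the constitutive Pla2g4e tm2a allele from EUCOMM on C57BL/6N-A tm1Brd, a gene trap with a LacZ element predicted to give a null allele, and it was present in every cell type from the start of development. The other group was WT. PLA2G4E is an N-acyltransferase that makes N-acyl phosphatidylethanolamines, the precursors of N-acylethanolamines. For these 6 libraries the labels give the tissue and the genotype and no sex, age, litter or preparation day, and nothing in them says beyond separate titles that each library was a separate animal. The p-values below measure the spread between these libraries only.

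Poly(A)-selected, strand-specific libraries held 11792463 to 14594230 fragments assigned to genes, 6.13% to 7.41% of them on the mitochondrial chromosome. Pla2g4e transcript was still counted in KO, with 88, 97 and 102 fragments against 100, 138 and 168 in WT. CPM are fragments per 1000000, with library sizes adjusted by a TMM scaling factor. Pla2g4e was at 5.95, 8.12 and 7.97 CPM in KO and 7.84, 11.3 and 13.2 in WT, and the groups overlapped. Its log2 fold change was -0.55 ± 0.21 (SE, unadjusted p = 0.0205, limma-voom adjusted p = 0.635). The tables give 1 count over all exons, so the part of the gene that the counted fragments came from is not seen. KO 1 and WT 1 had 0 and 2 fragments of Y-linked genes and the other 4 libraries 2221 to 2383, so each group held 1 library without Y-linked transcripts.

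The respiratory chain of the inner mitochondrial membrane passes electrons from NADH (complex I) and succinate (complex II) through complex III and cytochrome c to oxygen (complex IV), pumps protons on the way, and lets them return through ATP synthase (complex V). Its subunits come from separate genomes. The hydrophobic core of complexes I, III, IV and V is encoded in mitochondrial DNA, which is transcribed from both strands as long precursors, while complex II and the other subunits are encoded in the nucleus, where NRF1, ETS factors such as GABP, and YY1 are the best known shared regulators. Neurons depend heavily on this pathway for the energy of synaptic transmission. In bulk tissue, fewer cells of a type and less RNA per cell cannot be told apart.

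Of the 13 mitochondrial mRNAs, only 7 could be measured. mt-Co1, mt-Cytb, mt-Nd1, mt-Nd5, mt-Nd2 and mt-Nd4 had between 417235 and 1481800 fragments in the 6 libraries together, whereas mt-Co2, mt-Atp8, mt-Atp6, mt-Co3, mt-Nd3 and mt-Nd4l had 5 to 38. These low genes lie side by side on the mitochondrial chromosome. The stretch has a near-identical annotated copy on chromosome 1 (chr1:24650616-24655278 in GRCm39, minus strand). Over 681 compared bases mt-Co2 and its copy Gm28661 had 0 mismatches, as did mt-Atp6 with Gm10925 over 678, mt-Co3 with Gm28437 over 783 and mt-Nd4l with Gm10222 over 294. A fragment from such a stretch has more than 1 equally good position, and the counting command in the file headers names no option to count such fragments, so the level of these mRNAs cannot be read from a low count here; the fate of such fragments was not tested. mt-Atp8 has no annotated copy of its own and overlaps mt-Atp6.

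The copies reach into the measured members at both ends of the stretch. Gm28439 covered 63.6% of mt-Nd4 with 0 mismatches in 876 bases, and Gm29216 covered 31.8% of mt-Co1 with 6 mismatches in 492 bases and an identical run of 479 bases. The counts of mt-Nd4 and mt-Co1 may therefore be partial, which was not tested. The starts of the compared stretches of mt-Co1 (from base 1054) and mt-Nd3 (from base 1) are shown with their copies because they hold every mismatch found, with mismatched bases in capitals (GENCODE M21 transcripts, 60 bases each).
mt-Co1: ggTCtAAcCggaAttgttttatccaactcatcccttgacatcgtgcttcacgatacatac
Gm29216: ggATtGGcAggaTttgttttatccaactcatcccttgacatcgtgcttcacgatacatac
mt-Nd3: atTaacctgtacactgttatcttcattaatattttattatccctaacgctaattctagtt
Gm28438: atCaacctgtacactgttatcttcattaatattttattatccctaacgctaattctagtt
Counted from base 1 of mt-Nd3, the single substitution to Gm28438 was T3C. In KO 1, 2 and 3, Gm28438 held 403, 299 and 421 fragments, and in the WT libraries 299, 407 and 439, while mt-Nd3 held 6 in all libraries together and the other 6 copies 2 to 13 per library. From which of the 2 positions those fragments came was not tested, and KO and WT overlapped.

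**Figure D1:**
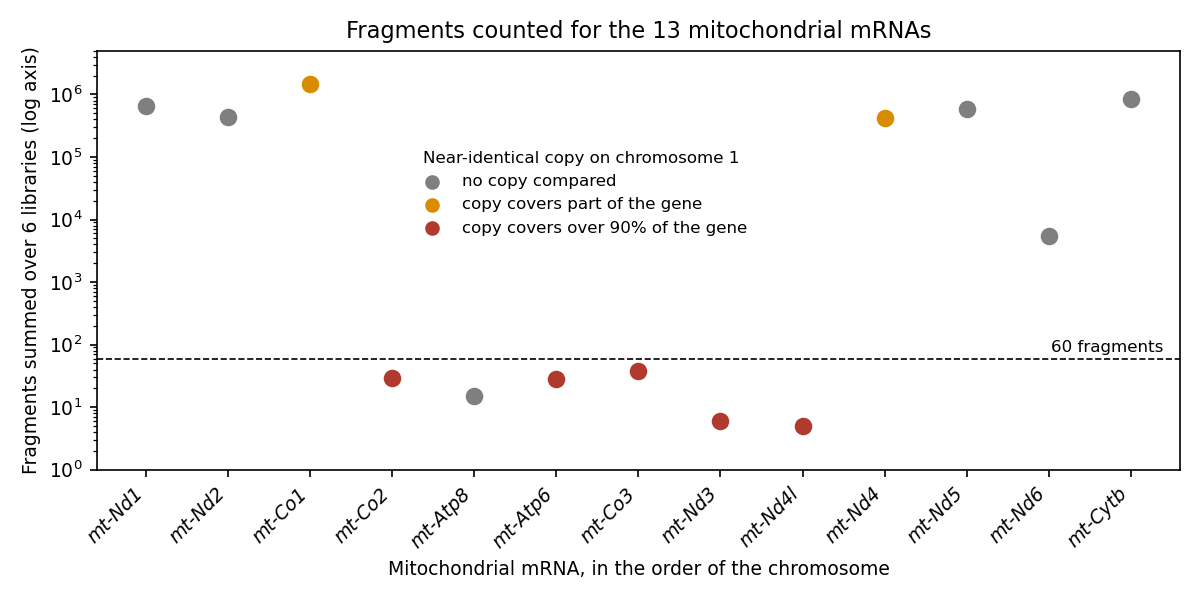
Fragments summed over 6 libraries (log axis) for the 13 mitochondrial mRNAs in chromosome order, colored by how much of the gene an annotated chromosome 1 copy covers. The 6 mRNAs below the dashed line at 60 fragments lie next to each other between mt-Co1 and mt-Nd4, and 5 of them have a copy over more than 90% of their length.

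The measured mitochondrial mRNAs did not separate KO from WT, apart from mt-Nd6. Together the 7 members took 6.34%, 5.31% and 5.71% of fragments in KO 1, 2 and 3 and 5.44%, 5.18% and 6.14% in WT 1, 2 and 3. KO 1 and WT 3 were the highest libraries and KO 2 and WT 2 among the lowest, so the groups overlapped. mt-Co1, the catalytic subunit of complex IV, was at 20654, 17935 and 19254 CPM in KO and 18355, 17733 and 20780 in WT, and mt-Cytb, the cytochrome b of complex III, at 12114, 9880 and 10855 against 10691, 10093 and 11613. The complex I subunits mt-Nd1 and mt-Nd5 had the same order of libraries within KO, and within WT were also highest in WT 3. mt-Nd1 was at 9194, 7559 and 8355 CPM in KO against 8260, 7604 and 9010 in WT, and mt-Nd5 at 8259, 6920 and 7656 against 6772, 6829 and 8188. For the 6 members transcribed from the same strand as these, log2 fold changes (KO over WT) ran from 0.01 to 0.07, with unadjusted limma p-values between 0.424 and 0.915.

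These 6 mRNAs moved as a block from library to library. Their mean deviation from the 6-library mean was 0.15, -0.12 and 0.01 (log2) in KO and -0.04, -0.11 and 0.11 in WT, and no single gene was more than 0.09 from that mean in any library. mt-Nd4 (6029, 4926 and 5359 CPM in KO; 5276, 4984 and 5684 in WT) and mt-Nd2 (6264, 5154 and 5679 in KO; 5560, 5360 and 6051 in WT) showed the same order of libraries within KO. The mitochondrial ribosomal RNAs, which a poly(A) selection captures in part, had their highest summed level in WT 3 (12453 CPM), with 10039 to 10528 in KO, but were not high in KO 1.

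mt-Nd6, the only mRNA encoded on the opposite strand (chrM:13552-14070, minus strand), stood lower in every KO library. It was at 54.8, 62.0 and 48.4 CPM in KO and at 66.2, 77.3 and 110.8 in WT, where WT 3 was far above the other two. The log2 fold change was -0.60 ± 0.16 (SE), the lowest unadjusted p among members (0.0024), and it did not pass the test over all genes (limma-voom adjusted p = 0.635). Against mt-Cytb as a measure of the other strand, mt-Nd6 had 4.53, 6.27 and 4.46 fragments per 1000 in KO and 6.20, 7.66 and 9.54 in WT, so KO 2 lay just above WT 1 on that scale. Without WT 3 the log2 fold change was -0.39. On FPKM (CPM per kilobase of exon, with the exons of all isoforms joined), mt-Nd6 averaged 135, against 3901 for mt-Nd4 and 12374 for mt-Co1. These levels also depend on how well the poly(A) selection captured each RNA, which was not measured.

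Nuclear members were much lower in level. Per kilobase, the median of the 6 block members (7087 FPKM) was 169 times the median nuclear member (42.0 FPKM). In fragments, mitochondrial members exceeded nuclear members 8.32, 6.98 and 7.99 times in KO and 6.70, 6.91 and 8.12 times in WT. The log2 ratio averaged 2.95 ± 0.13 (SD, n = 3) in KO and 2.85 ± 0.15 (SD, n = 3) in WT, a difference of 0.10 that was smaller than the spread within groups. Summed nuclear members were at 7520, 7512 and 7158 CPM in KO and at 8204, 7627 and 7564 in WT. Every KO sum was below every WT sum, by a margin between KO 1 and WT 3 that was small beside the distance of WT 1 from the other WT libraries. In alternatives chosen after seeing the data, the sums were also separated under upper-quartile and relative log expression scaling, but not with library totals alone. As a percent of all fragments, nuclear members took 0.762%, 0.761% and 0.715% in KO and 0.812%, 0.7498% and 0.755% in WT, and the groups overlapped.

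**Figure D2:**
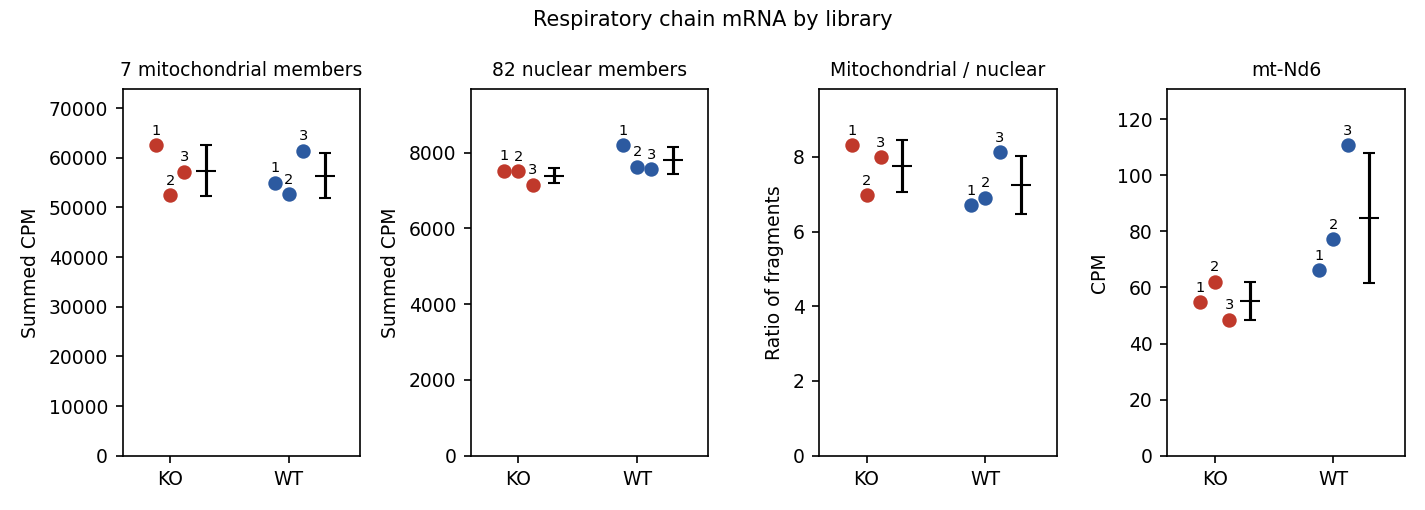
Values of the 6 libraries (points, numbered by replicate) with mean ± SD to the right of each group, for the summed CPM of 7 mitochondrial and 82 nuclear members, their ratio of fragments, and mt-Nd6 in CPM; all axes start at 0. Mitochondrial sums and ratios overlap, while TMM-scaled nuclear sums (7158 to 7520 in KO, 7564 to 8204 in WT) and mt-Nd6 (48.4 to 62.0 in KO, 66.2 to 110.8 in WT) do not; as a percent of all fragments nuclear members overlap (0.715% to 0.762% in KO, 0.7498% to 0.812% in WT).

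No member passed the test over all genes, and most nuclear members were slightly lower in KO. With limma-voom and Benjamini-Hochberg adjustment over 19084 genes, 0 genes (0.0%) passed an adjusted p of 0.05, members included. edgeR's quasi-likelihood test called 0 genes and DESeq2 called 1, which was no member. Of the 82 nuclear members, 66 had a log2 fold change below 0 (80.5%), against 48.1% of all genes tested and 54.3% of the genes at 10 CPM or more. The median over nuclear members was -0.07, beside 0.01 over all genes tested. At a median SE of 0.08 per gene, the median 95% interval ran from -0.25 to 0.11.

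At an unadjusted p under 0.05, 6 of 89 members (6.74%) were lower in KO and 0 were higher. Among all genes tested, 3.44% were lower and 4.38% higher at that threshold, and 5.26% of the 10254 genes at 10 CPM or more were lower, which is near the members' share. In 15 members (16.9%) every KO library was below every WT library, beside 6.29% of all genes and 8.41% of those at 10 CPM or more, and in 0 members every KO library was above every WT library, beside 6.72% of all genes. With library totals alone in place of TMM scaling, 5 members lay below without overlap, beside 4.63% of all genes. The count of members lower at an unadjusted p under 0.05 depended on single libraries. It was 1 without KO 3 (3.15% of all genes were lower at that threshold), 3 without KO 2 (3.14%), 3 without WT 1 (2.32%) and 15 without WT 3 (6.40%).

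**Figure D3:**
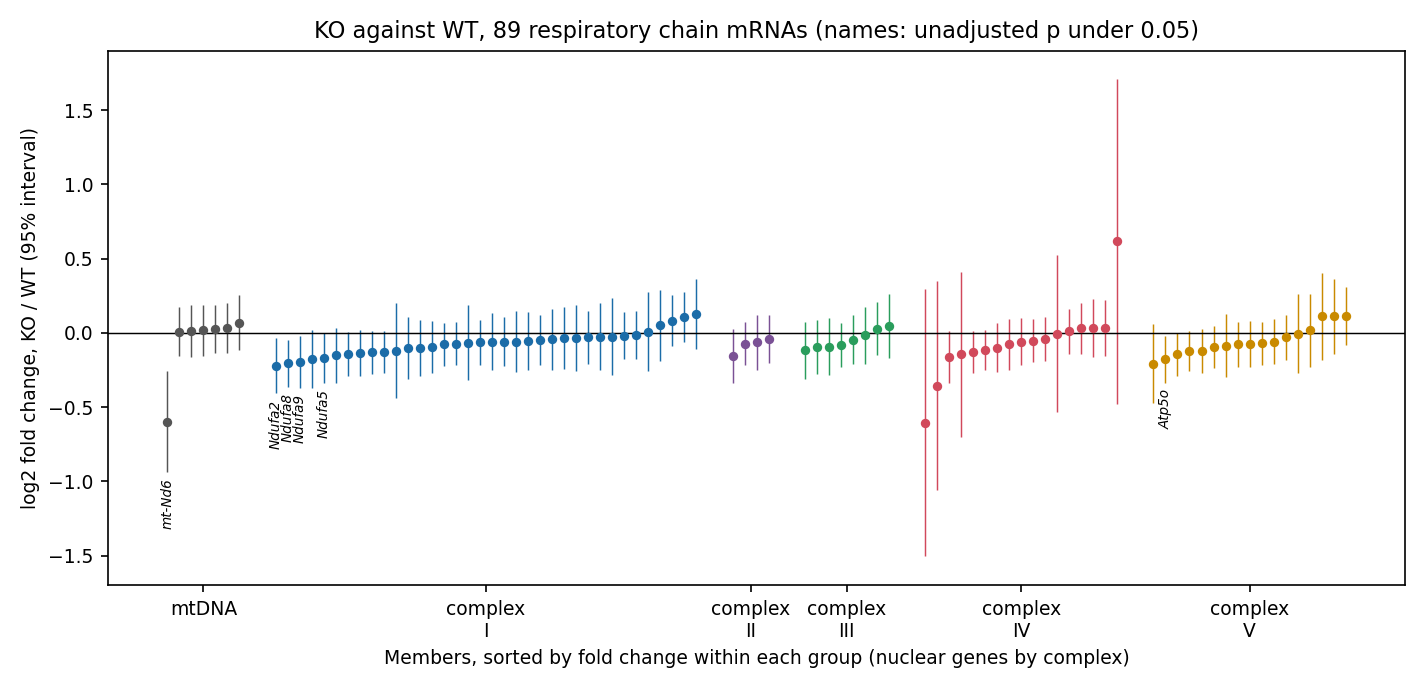
Log2 fold change KO over WT with its 95% interval (limma-voom) for 89 members, the 7 mitochondrial members first and nuclear members by complex. Named are the 6 members at an unadjusted p under 0.05, all below 0; intervals of the least counted complex IV isoforms are the widest.

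Complex I, which oxidizes NADH, held 36 nuclear members with a median log2 fold change of -0.06, 31 of them below 0 (54.3% of genes at 10 CPM or more were) and 4 of them lower at an unadjusted p under 0.05 (3.44% of all genes and 5.26% of those at 10 CPM or more). The 4 were accessory subunits of the NDUFA family, in which 11 of 12 members were below 0. Ndufa8 (chr2:35926338-35939418, in GRCm39 like all gene positions here other than the promoter windows), a subunit of the intermembrane space side, was at 65.8, 63.3 and 62.5 CPM in KO and 79.6, 70.7 and 71.0 in WT, so that the groups did not overlap and WT 1 was highest. Its log2 fold change was -0.21 ± 0.07 (SE, unadjusted p = 0.0158, limma-voom adjusted p = 0.635).

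Ndufa2 stood at 33.5, 30.4 and 30.7 CPM in KO and 39.4, 34.95 and 36.1 in WT (log2 fold change -0.22). Ndufa5 (chr6:24518665-24528012), of the arm that projects into the matrix, was at 59.2, 51.4 and 53.1 CPM against 63.3, 60.5 and 60.3 (-0.17). For both, KO 1 was the KO library nearest to WT. Ndufa9 (chr6:126798684-126826099), which sits near the ubiquinone channel, was at 57.0, 63.5 and 60.3 CPM in KO and 67.3, 75.4 and 64.3 in WT (-0.19), with KO 2 just below WT 3. Unadjusted p-values of these 3 were 0.0244, 0.0479 and 0.0319, and none passed the limma-voom adjustment over all genes.

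The nuclear core subunits of complex I carry flavin and iron-sulfur clusters or line the quinone site. Ndufs1, the large iron-sulfur subunit, was at 100.9, 108.5 and 107.9 CPM in KO and 118.5, 115.8 and 112.1 in WT. Ndufs7 was at 38.6, 38.9 and 37.6 CPM against 48.5, 42.9 and 39.0. In both the groups did not overlap, though in Ndufs7 KO 2 lay just below WT 3, and their unadjusted p-values were 0.0712 and 0.0741. Ndufs8 (log2 fold change -0.15), Ndufv2 (-0.10), Ndufv1 (-0.08) and Ndufs3 (-0.02) overlapped between groups.

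Among the other accessory subunits of complex I, Ndufa13 (76.6, 73.0 and 73.6 CPM in KO; 85.3, 78.0 and 83.3 in WT) and Ndufb5 (70.6, 74.7 and 72.2 in KO; 76.3, 75.1 and 77.2 in WT) also lay below WT without overlap. The 11 NDUFB members, of the membrane arm, had a median of -0.05, with 3 above 0, and the highest value in the complex was Ndufb6 at 0.13 ± 0.11 (SE). Levels per kilobase within nuclear complex I ran from 6.08 FPKM (Ndufb4) to 98.9 (Ndufb9), both of which share sequence with another annotated gene.

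Complex II, which links the tricarboxylic acid cycle to the chain and is wholly nuclear, had 4 members with fold changes of -0.16 (Sdhb), -0.07 (Sdha), -0.06 (Sdhc) and -0.04 (Sdhd). Sdhb, the iron-sulfur subunit, was at 84.0, 85.3 and 79.3 CPM in KO and 103.6, 91.8 and 82.6 in WT, where WT 3 lay below KO 1 and KO 2. Sdha, the flavoprotein, was at 316.7, 323.7 and 335.4 against 346.2, 364.2 and 316.9. Both therefore overlapped between groups through WT 3, and no member of the complex was under an unadjusted p of 0.05.

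Complex III had 8 nuclear members, with a median of -0.06 and 0 under an unadjusted p of 0.05. Uqcrc1 (142.0, 151.8 and 139.2 CPM in KO; 160.5, 152.7 and 134.7 in WT), Uqcrc2 (133.3, 133.6 and 129.1 in KO; 148.3, 141.0 and 130.4 in WT) and the Rieske iron-sulfur protein Uqcrfs1 (65.8, 65.2 and 60.4 in KO; 77.0, 65.8 and 62.1 in WT) were each highest in WT 1, and each overlapped. Uqcr10 was the highest per kilobase (103.6 FPKM) and Uqcrc1 the lowest (35.5 FPKM). The joined exons of Uqcrc1 are 4135 bases long, against 1653 in its transcript of longest coding sequence, so its place as the lowest is uncertain.

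Complex IV had 17 nuclear members with a median of -0.06. Its tissue isoforms differed far more from each other than KO from WT. Cox4i1, the regulatory subunit found in most tissues, averaged 226 FPKM and its partner Cox4i2, known from lung and pericytes, 1.65 FPKM, a ratio between 106 and 185 in the 6 libraries. Cox6a1 averaged 275 FPKM against 3.54 for the muscle isoform Cox6a2. Cox6b1 averaged 199 FPKM against 1.09 for the testis isoform Cox6b2, Cox7a2 102 against 1.52 for the muscle isoform Cox7a1, and Ndufa4 120 against 2.74 for Ndufa4l2. Cox8a was the highest of all nuclear members at 361 FPKM, and its muscle partner Cox8b had 4 fragments in all.

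The 5 rare isoforms gave no usable comparison of KO with WT. Cox7a1 was at 0.95, 1.09 and 0.78 CPM in KO and 1.10, 0.25 and 0.71 in WT, with a coefficient of variation of 62.4% among WT libraries, the largest of any member. Cox6b2 was at 1.62, 0.67 and 0.62 CPM in KO and 1.10, 1.56 and 1.65 in WT. Their log2 fold changes of 0.62 ± 0.50 (SE) and -0.61 ± 0.41 (SE) were the highest and the lowest of the nuclear members. Ndufa4l2, at 2.76 to 3.24 CPM in KO and 2.37 to 3.92 in WT, had the third largest coefficient of variation among WT libraries (26.1%), after mt-Nd6 (27.4%).

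Among the abundant complex IV subunits, Cox6a1 (181.0, 179.7 and 193.1 CPM in KO; 214.2, 193.6 and 197.9 in WT) and Cox8a (217.8, 210.5 and 215.1 in KO; 244.3, 233.4 and 219.9 in WT) were lower in every KO library, with log2 fold changes of -0.13 and -0.12 and unadjusted p-values of 0.0728 and 0.0922. Cox5a, which binds the matrix side, was at 83.8, 86.2 and 83.1 CPM against 105.7, 93.2 and 85.7 (-0.16), overlapping through WT 3. By contrast Cox4i1 was at 362.0, 365.7 and 325.8 in KO and 360.6, 327.5 and 358.1 in WT (0.01 ± 0.07, SE), and Ndufa4 at 170.5, 178.3 and 153.8 against 171.3, 143.7 and 176.8 (0.03 ± 0.09, SE). Cox5b was at -0.06 and Cox6b1 at -0.08, both with overlapping groups, as was Cox7a2l (-0.05), a supercomplex factor named as a subunit.

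ATP synthase had 17 members with a median of -0.07, 13 of them below 0. Both subunits of its catalytic core had lower means in KO. Atp5b, the beta subunit, was at 689.3, 699.2 and 678.8 CPM in KO and 789.5, 764.8 and 701.3 in WT, with KO 2 just below WT 3, and Atp5a1, the alpha subunit, at 512.3, 547.9 and 535.0 against 596.8, 612.7 and 530.3, with overlap through WT 3. Their log2 fold changes were -0.12 ± 0.06 and -0.12 ± 0.07 (SE), with unadjusted p-values of 0.0664 and 0.0927. Atp5a1 had the highest level per kilobase in the complex (177 FPKM) and Atp5l the lowest (2.01).

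Atp5o (chr16:91722102-91728575), the stalk subunit that gives oligomycin sensitivity, was at 92.7, 84.1 and 80.7 CPM in KO and 100.7, 94.1 and 96.3 in WT, so the groups did not overlap. Its log2 fold change of -0.18 ± 0.07 (SE) had an unadjusted p of 0.0306 and a limma-voom adjusted p of 0.635. A second gene entry of the same symbol, with 0 fragments, shares 21.2% of its 100-base stretches, so fragments from these may be missing. Atp5j, of the same stalk, was at 97.3, 94.2 and 92.2 CPM against 110.4, 104.3 and 99.4 (-0.15, unadjusted p = 0.0517). The 3 genes of the membrane ring, Atp5g3 (59.9 FPKM), Atp5g1 (11.2) and Atp5g2 (6.93), encode the same mature protein, and their fold changes were -0.03, -0.07 and -0.0041, with groups that overlapped. Atp5s (-0.21 ± 0.12, SE) is listed by RefSeq as Dmac2l and kept here by its older name.

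For 11 nuclear members, over 10% of the 100-base stretches of the transcript also occur in another gene, most of all in Atp5g2 (86.4%), Atp5l (61.3%), Cox7c (44.4%), Ndufa12 (38.3%) and Ndufb4 (33.4%), and their counts are uncertain. The other 71 nuclear members had a median log2 fold change of -0.07, with 59 below 0.

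By library, the nuclear members of all 5 complexes were highest in WT 1. The median deviation over nuclear members from each gene's 6-library mean was 0.01, -0.02 and -0.08 (log2) in KO and 0.12, -0.01 and 0.01 in WT. WT 1 was the highest library for 49 of 82 nuclear members and KO 3 the lowest for 34. Without WT 1 the median log2 fold change was -0.03 and 56 of 82 were below 0, while without WT 2 these were -0.10 and 73. Within the 4 libraries that had Y-linked transcripts, which leaves out WT 1 and KO 1, the median was -0.05 with 59 of 82 below 0. The mitochondrial block had another order, and was at -0.04 in WT 1.

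**Figure D4:**
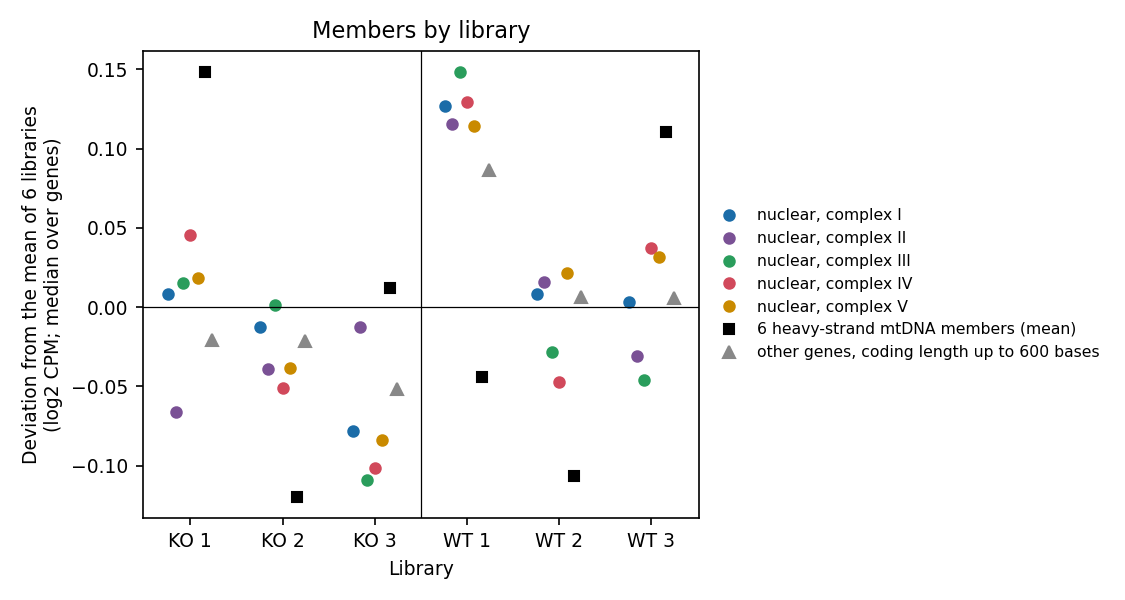
Deviation of each library from the mean of 6 libraries (log2 CPM), as the median over nuclear members of each complex, the mean over 6 mitochondrial members, and the median over other genes at 10 CPM or more with a coding length of up to 600 bases. The nuclear complexes peak together in WT 1 (0.11 to 0.15), the mitochondrial members in KO 1 and WT 3 (0.15 and 0.11).

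Other genes with short coding sequences showed similar values. Nuclear members have short coding sequences, with a median of 411 bases in 81 members against 1509 in 9929 other genes at 10 CPM or more. Over the 1073 other genes with a coding length of up to 600 bases, the median log2 fold change was -0.06 and 73.1% were below 0. The 61 nuclear members of that length had a median of -0.06 and 73.8% below 0, so that at this length the members' share is near that of other genes. In libraries, those other short genes stood at -0.02, -0.02 and -0.05 in KO and 0.09, 0.01 and 0.01 in WT.

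For longer coding sequences the values differed. The 9 members of 601 to 1000 bases had a median of -0.10, against -0.06 in 1645 other genes, and the 10 members of 1001 to 2000 bases a median of -0.10, against -0.02 in 3760 other genes. Of the other genes 67.5% and 56.1% were below 0 in these 2 length classes. All 19 of these members were below 0, as was the 1 longer member, Ndufs1. They include the core subunits described above. A trend on coding length was then removed from the fold changes of all genes that have a coding sequence. Over the 81 nuclear members among them, the median was -0.03 and 53 were below 0. The part of coding length in the members' difference was not tested further.

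**Figure D5:**
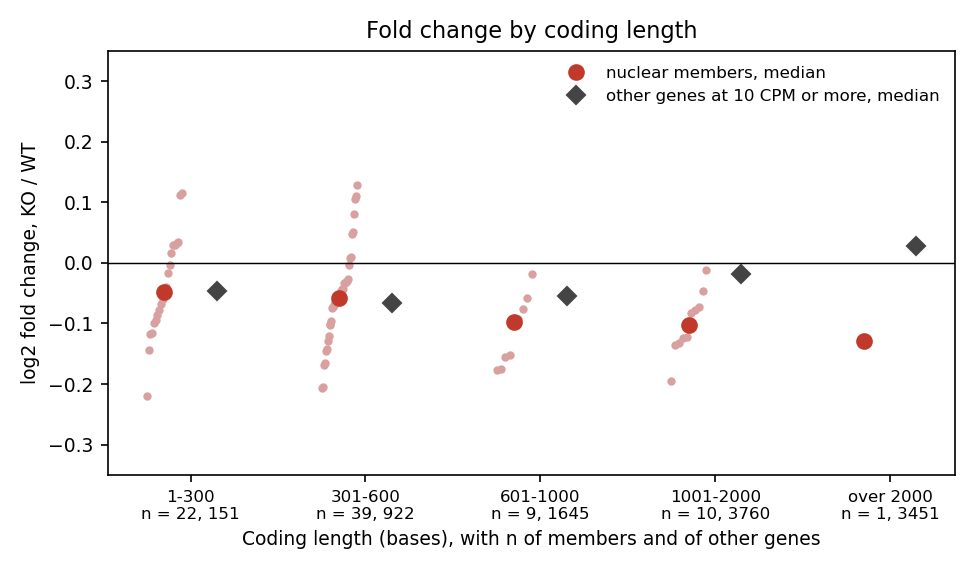
Log2 fold change KO over WT by coding length, as medians over nuclear members (circles; small points are single members) and over other genes at 10 CPM or more (diamonds), with the numbers of each under the axis; 3 rare isoforms lie outside the axis limit of 0.35. Up to 600 bases the 2 medians are alike (-0.06 and -0.06), above it the members are lower.

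Promoter motifs were searched, which the name rule and the counts did not use. Promoter windows from 250 bases before to 50 after the start site (RefSeq, GRCm38.p6) were found for 67 of 82 nuclear members. On either strand, the NRF1 motif (GCGC, any 1 base, then TGCGC) occurred in 25.4% of them, against 5.19% of 27025 genes with a window, the ETS motif CCGGAAG in 23.9% against 9.93%, and the YY1 motif AAGATGGCG in 10.4% against 1.64%. At least 1 of these 3 was in 50.7% against 15.1%. GGGCGG (40.3% against 38.2%) and CCAAT (43.3% against 41.1%) were near the share of all genes, and TATAAA was in 7.46% against 15.7%. Members' windows were richer in G and C, with a median of 58.0% against 52.7%.

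Stretches of 80 bases, on the gene's strand and with the motif letters in capitals, are given for members that lay below WT without overlap and held NRF1, ETS or YY1 letters. Of 15 members without overlap, 11 had a window, and the 8 shown are those with a match. The other 3 (Ndufa13, Ndufb5 and Atp5b) had none. Ndufa8 (chr2:36049325-36049404), Ndufa5 (chr6:24527673-24527752), Atp5o (chr16:91931581-91931660) and Cox6a1 (chr5:115349042-115349121), all on the minus strand of GRCm38.p6, hold the NRF1 motif, which in Ndufa5 and at the second place in Cox6a1 reads as the motif on the opposite strand. Ndufa9 (chr6:126849095-126849174, minus strand) and Ndufs7 (chr10:80249419-80249498, plus strand) hold the YY1 motif, Atp5j (chr16:84835009-84835088, minus strand) holds YY1 and ETS, and Cox8a (chr19:7217567-7217646, minus strand) holds ETS on the opposite strand at 2 places.
Ndufa8: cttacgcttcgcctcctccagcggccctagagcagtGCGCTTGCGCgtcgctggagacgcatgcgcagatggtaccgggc
Ndufa5: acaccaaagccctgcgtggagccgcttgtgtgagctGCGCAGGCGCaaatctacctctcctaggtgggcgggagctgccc
Atp5o: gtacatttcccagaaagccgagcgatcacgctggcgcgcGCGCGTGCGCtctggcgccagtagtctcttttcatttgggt
Cox6a1: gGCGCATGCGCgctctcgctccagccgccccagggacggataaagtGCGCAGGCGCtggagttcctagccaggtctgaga
Ndufa9: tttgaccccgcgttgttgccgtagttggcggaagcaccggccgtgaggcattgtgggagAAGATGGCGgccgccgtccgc
Ndufs7: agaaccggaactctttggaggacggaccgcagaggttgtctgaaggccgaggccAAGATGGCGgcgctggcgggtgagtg
Atp5j: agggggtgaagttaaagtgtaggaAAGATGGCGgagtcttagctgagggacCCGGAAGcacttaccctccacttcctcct
Cox8a: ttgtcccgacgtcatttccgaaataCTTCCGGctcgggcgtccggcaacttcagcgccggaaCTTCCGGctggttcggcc
A match is a run of letters, and binding was not measured. The windows of some members held none of these letters, among them Cox5a (-0.16) and Atp5b (-0.12). Fold changes of members with and without the letters were not compared.

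Other genes of the pathway were described from lists. Among all genes tested 48.1% were below 0, and among those at 10 CPM or more 54.3%. Of 47 assembly factors of the chain tested, 35 were below 0 with a median of -0.04, and 0 were under an unadjusted p of 0.05. Of 17 genes for electron carriers and coenzyme Q synthesis, 12 were below 0 (median -0.07) and again 0 were under that p. Genes that maintain and transcribe mitochondrial DNA had a median of 0.02, with 16 of 28 above 0. Among these Polg, the mitochondrial DNA polymerase, was higher in every KO library (90.1, 94.0 and 90.8 CPM against 77.3, 85.7 and 83.5; log2 fold change 0.16, unadjusted p = 0.0388). Of 13 regulators of mitochondrial biogenesis 8 were above 0 (median 0.01), with Gabpb2, a beta subunit of GABP, at 46.0, 34.7 and 40.8 CPM in KO and 26.7, 30.4 and 34.3 in WT (0.41 ± 0.12, SE, unadjusted p = 0.0043). Every KO library was above every WT library, by a narrow margin between KO 2 and WT 3. Among all genes tested, 6.72% were higher in every KO library, and 4.38% were higher at an unadjusted limma-voom p under 0.05. Polg and Gabpb2 were the only genes of their lists at that p (1 of 28 and 1 of 13).

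In both pathways that feed the chain, most genes had values below 0. In the tricarboxylic acid cycle 15 of 18 genes were below 0 (median -0.06), and Idh3a, a subunit of isocitrate dehydrogenase, was at 158.6, 177.6 and 174.4 CPM in KO against 204.1, 185.6 and 180.0 in WT (-0.16, unadjusted p = 0.0479). In glycolysis 13 of 17 genes were below 0 (median -0.12), and 5 were lower at an unadjusted p under 0.05, beside 3.44% of all genes and 5.26% of those at 10 CPM or more, of which 54.3% were below 0. Tpi1, triosephosphate isomerase, was at 374.1, 408.8 and 390.6 CPM in KO and 474.1, 504.0 and 408.1 in WT (-0.24, unadjusted p = 0.0107), with KO 2 just above WT 3. Aldoa, aldolase A, was at 1170, 1214 and 1208 against 1577, 1485 and 1227 (-0.25, unadjusted p = 0.0108), and Hk1, hexokinase 1, had -0.20 (unadjusted p = 0.0276). No gene of any list passed the limma-voom adjustment, the lowest adjusted p being 0.635.

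No marker of a cell type passed the limma-voom adjustment. The counts by direction below stand beside 48.1% of all genes tested below 0, and 54.3% of those at 10 CPM or more. Of 12 neuron markers, 9 were below 0 (median -0.13), with summed levels of 12304 to 13284 CPM in KO and 12972 to 14012 in WT, and 4 of 6 markers of parvalbumin interneurons were below 0 (median -0.17; 376.3 to 398.3 CPM in KO and 392.1 to 407.8 in WT). At an unadjusted p under 0.05, Stmn2 and Snap25 of the neuron markers and Lhx6, Syt2 and Pvalb of the interneuron markers were lower in KO, which is 2 of 12 and 3 of 6, beside 3.44% of all genes and 5.26% of those at 10 CPM or more. The median deviation of the interneuron markers from their 6-library means was -0.16, -0.06 and -0.03 (log2) in KO and 0.06, 0.06 and 0.07 in WT, without overlap. All 10 astrocyte markers were above 0 (median 0.07; 4339 to 4779 CPM in KO, 4084 to 4778 in WT), as were 9 of 11 oligodendrocyte markers (median 0.17; 2416 to 2775 CPM in KO, 1888 to 3060 in WT). By library the astrocyte medians overlapped, at 0.19, -0.08 and 0.05 in KO and 0.17, -0.12 and -0.07 in WT. Markers of striatal neurons were above 0 in 8 of 9 genes (median 0.27; 405 to 524 CPM in KO, 334 to 515 in WT). Library medians of the striatal markers spanned a wider range (KO -0.23 to 0.59, WT -0.51 to 0.36), with overlap. Those of the oligodendrocyte markers overlapped too (KO -0.05 to 0.16, WT -0.35 to 0.27). Among the marker lists, only the interneuron list had library medians without overlap. Endothelial markers were below 0 in 6 of 8 genes (median -0.08; 244 to 261 CPM in KO, 227 to 294 in WT), microglia markers in 6 of 10 (median -0.02; 401 to 432 CPM in KO, 376 to 473 in WT), blood cell markers in 4 of 5 (median -0.06; 35.6 to 61.8 CPM in KO, 38.7 to 59.1 in WT) and choroid plexus markers in 2 of 5 (median 0.07; 6.70 to 15.1 CPM in KO, 7.38 to 35.3 in WT). At that p, Mal of the oligodendrocyte and Penk of the striatal markers were higher and Aif1 of the microglia markers was lower. The KO and WT ranges of each of these sums overlapped. Their part in the members' values was not tested.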

How the data were processed

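Gene counts were deposited per library. Per the file headers and the labels, the authors aligned paired reads with STAR 2.7.9a to GRCm39 and counted fragments over GENCODE M31 exons by strand with featureCounts 1.6.0, with no option for fragments that map to several places; the study's methods name an older build and annotation. Symbols came from mouse GENCODE M21. Counts were scaled by TMM (edgeR 4.0.16) and tested with limma-voom (limma 3.58.1, R 4.3.3), two-sided, KO against WT, on 19084 genes with 6 or more fragments in at least 1 library, with Benjamini-Hochberg adjustment over all of them; the test was tested on simulated data. CPM are TMM-scaled; FPKM divide by the exonic length in the tables, which joins all isoforms. Members, lists and tests were chosen with earlier results of these data known. Named were mitochondrial members, core subunits, isoform pairs, the extremes of level in each complex, members under an unadjusted p of 0.05, the 3 with the largest WT spread, and up to 3 genes per list by p; members whose groups did not overlap were added after their values were seen. Part of what this rule names is not reported here. Alternatives were other scalings, tests, filters and weights, a replicate block, a Y-linked covariate, libraries left out and length trends. Every pair of libraries differed by more than sampling noise. The lowest chi-square over its degrees of freedom was 2.95, between KO 2 and WT 3, and the lowest within a group was 3.82, between KO 2 and KO 3.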

Additional observations from a re-analysis of the deposited data

How the results depend on the processing

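No member passed an adjusted p of 0.05 in any of the alternatives run, the lowest value being 0.0811 for mt-Nd6 among the 4 libraries with Y-linked transcripts, and its log2 fold change stayed between -0.76 and -0.39. The count of members at an unadjusted p under 0.05 (6) was 3 with library totals alone and 10 with a Y-linked covariate, and ran from 1 to 15 with single libraries left out; all genes lower at that threshold were 3.44%, and 2.19%, 4.61% and 1.70% to 6.40% in those fits. The causes were not tested. With the replicate block the count of members was 6 (3.62% of all genes were lower at that threshold), with a nuclear median of -0.069. Same-numbered libraries correlated at 0.27, 0.06 and -0.02, so the numbers were not taken to pair samples. The nuclear median stayed below 0 throughout, from -0.10 (without WT replicate 2) to -0.03 (coding length trend removed, an alternative chosen after seeing the data). The median over mitochondrial members changed sign without KO replicate 1 (-0.06), without WT replicate 2 (-0.03) and in the 4 libraries (-0.06). Members lower in every KO library numbered 15 (6.29% of all genes), and 5 (4.63%), 13 (5.84%) and 16 (6.73%) under library totals, upper-quartile and relative log expression scaling, also chosen after seeing the data; the cause was not tested. Of the other 43 members that the naming rule takes, 17 changed sign in at least 1 alternative. Counting depth limits Cox7a1, Cox6b2 and Cox4i2, with 63 to 100 fragments in all.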
